A study of Mus musculus with 70 samples.

Results

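ST2- CD44hi regulatory T cells (Tregs) from abdominal visceral adipose tissue (VAT) were compared with the same sorted population from spleen. The 5 libraries labelled ST2- CD44hi Tregs of abdominal VAT and the 5 of spleen were taken, provided that a library held more than 1000000 counts, and all 10 did, out of 70 libraries in the series. Both tissues came from the same 5 male mice, 16.6 to 18.6 weeks old, on the B6.129(Cg) background with the allele Foxp3tm4(YFP/icre)Ayr (stock suffix /J), in which the Foxp3 locus also drives a fusion of YFP and Cre recombinase. Every group in the series carried this allele, and the Treg gate was set on YFP and not on FOXP3 protein. The sorted cells were live, carried CD45, CD4 and YFP, and lacked CD8 and CD11b among other lineage markers. They were gated as CD44hi without surface ST2, the receptor for the alarmin IL-33. The groups set beside them were the ST2+ CD44hi Tregs of VAT and spleen, the ST2- CD44hi Tregs of blood, lungs, colon and skin, and the resting Tregs of lungs and of spleen, sorted as ST2- CD44lo, all from the same mice, and no treatment is named for any of them. Which fat depot was taken is not given in the sources used here. VAT was digested with collagenase at 37°C, as were the lungs, whereas spleens were disrupted mechanically. Spleen and lung cells, but not those of VAT, were enriched for CD4+ T cells on magnetic beads, so tissue and cell preparation cannot be told apart in this comparison.

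Tregs are CD4+ T cells that restrain immune responses and depend on the transcription factor FOXP3. Those in visceral fat are best known for a subset that carries ST2, expands in response to IL-33 and depends on the nuclear receptor PPARγ, a master regulator of fat cell differentiation. Tregs without ST2 also live in fat, and tissue Tregs in general leave behind the quiescence program of lymphoid T cells and take up chemokine receptors, repair factors and stress-responsive transcription factors.

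The VAT libraries held 2759926, 1532998, 2048196, 1861149 and 2010831 counts for mice 1 to 5, and the spleen libraries held 2195741 to 2656728. Each spleen library was made from 220 sorted cells, while the VAT libraries were made from 220, 93, 192, 118 and 135 cells in the order of the mice. VAT mouse 2, with the fewest cells, had 11877 detected genes, against 14453 to 15273 in the other VAT libraries and 14405 to 15757 in the spleen libraries. The 50 most abundant genes took 5.2% ± 0.634 of the counts in VAT and 4.36% ± 0.137 in spleen (SD, n = 5), a difference with an exact two-sided permutation p of 0.0317 that was 0.127 after adjustment over 4 library measures. Total counts (exact permutation p = 0.143), detected genes (0.143) and mitochondrial share (0.0952) did not pass, where the smallest p this design allows is 0.00794. The mitochondrial share was higher in VAT than in spleen in each mouse. With pairing by mouse its exact permutation p was 0.0625, the smallest two-sided p that 5 pairs allow. Paired in this way, total counts and detected genes each had an exact permutation p of 0.1875. Without mouse 1, total counts and mitochondrial share each had an exact permutation p of 0.0286, the smallest that 4 libraries against 4 allow.

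VAT mouse 1 stood apart from the other VAT libraries. Its mean Spearman rho, taken across genes, was 0.936 with the spleen libraries and 0.911 with the other VAT libraries, whereas every other VAT library correlated more closely with its own group than with spleen. The 943 genes called without it were used to place it on a scale from the spleen mean (0%) to the mean of the other VAT libraries (100%). VAT mouse 1 lay at a median of 47.6%, while each remaining VAT library, placed in the same way on the genes called without it, lay at 94.4% to 104%. It lay on the VAT side of the spleen mean for 80.8% of these genes, against 81.3% to 96.2% for the others. Whether this library holds only Tregs of VAT, as its label says, was not tested, and the VAT means include it. Counts of differentially expressed genes are therefore also given without it.

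Markers of other cell types were summed over fixed lists in CPM, which are counts scaled to 1000000 per library with a factor for composition, and the VAT libraries of mice 3 and 5 held the highest sums of several. The summed endothelial list (11 genes) was 21.1, 7.63, 556, 0.533 and 16.7 CPM in VAT of mice 1 to 5 and at most 4.604 CPM in spleen, with Cldn5 the most abundant member. All 11 genes had a positive log2 fold change, and 1 was called higher by edgeR (4 without VAT mouse 1, 0 without VAT mice 3 and 5) and 6 by DESeq2, where 4.26% of all tested genes were called higher. The adipocyte list (12 genes) reached 214 CPM in VAT mouse 3 and 12.1 to 24.6 CPM in the other VAT libraries (7.87 to 26.1 CPM in spleen). Fabp4 made up 199 CPM of the sum in VAT mouse 3, while Adipoq and Lep, which define fat cells, had 0 counts in every VAT library. Of the 12 genes, 7 had counts in VAT and 5 in spleen. Cfd, Retn and Car3 had counts in VAT and 0 in spleen, and Adipoq the reverse. The B and plasma cell list was highest in VAT mouse 3 as well, at 2810 CPM against 546 to 852 CPM in the other VAT libraries and 919.7 to 1020 CPM in spleen, and Pax5 was at 0 in VAT.

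The macrophage and monocyte list (17 genes) was higher in every VAT library than in any spleen library, at 184, 126, 335, 49.6 and 169 CPM in VAT and 8.6, 10.46, 37.8, 7.87 and 17.6 CPM in spleen, and 6 of its 16 tested members were called higher in VAT, with Apoe the most abundant (2 without VAT mice 3 and 5). Of the 17 genes, 14 had counts in VAT and 8 in spleen, and 14 of the tested members had a positive log2 fold change. Csf1r, Fcgr1 and Mrc1 were at 0 in all VAT libraries, while Itgam, the gene of the CD11b chain used to gate cells out, had 6 counts in VAT, all in mouse 3, and 0 in spleen. The dendritic cell list, led by Cd74, was at 1171 CPM in VAT mouse 5 and 619 CPM in VAT mouse 3, against 160.3 to 402 CPM in the remaining VAT libraries and 182 to 251 CPM in spleen, and 3 of its 11 genes were called higher (1 without VAT mice 3 and 5). The list for NK, CD8 T and innate lymphoid cells was also higher in VAT (321 to 529 CPM) than in spleen (124 to 205 CPM), with Nkg7 the most abundant member and Cd8a at 0 in both tissues, and 2 of 8 tested genes were called higher, with or without VAT mice 3 and 5.

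Markers of conventional CD4 T cells, led by Cd226, summed to 448 to 753 CPM in VAT and 245 to 412 CPM in spleen, with 3 of 8 genes called higher and 1 lower, and 0 in either direction without VAT mice 3 and 5. Of all tested genes, 4.26% were called higher and 1.53% lower. Those of fibroblasts, led by Gsn, were at 261 and 344 CPM in VAT mice 1 and 3, at 37.9 to 60.99 CPM in the other VAT libraries and at 77.9 to 109.6 CPM in spleen, with 2 of 12 genes called higher (1 without VAT mice 3 and 5) and Pdgfra at 0 in VAT. The single genes called higher in the adipocyte list and in the B and plasma cell list were not called without VAT mice 3 and 5. For mesothelial cells, granulocytes and mast cells, erythroid cells and platelets, pancreatic acinar cells and epididymal epithelium 0 genes were called and no library exceeded 64.4 CPM. The part of other cells in the gene differences was not tested, and leaving out the VAT libraries of mice 3 and 5 together was an alternative chosen after seeing the data. Calls of the genes named below that ended under it are given beside the gene or together where the gene lists are introduced. In bulk samples of sorted cells, fewer cells of a type and less RNA per cell cannot be told apart.

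**Figure D1:**
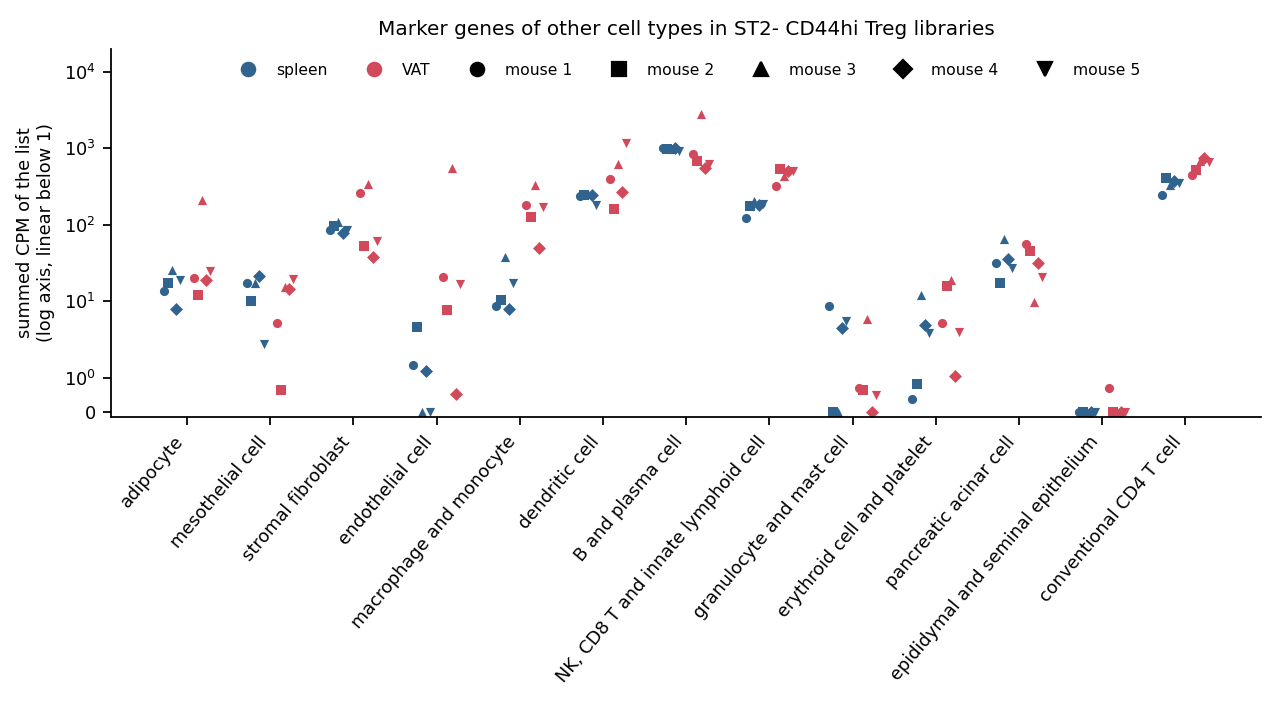
Summed CPM of marker lists for 13 other cell types (log axis, linear below 1) in the ST2- CD44hi Treg libraries of spleen (blue) and VAT (red), with a marker shape for each mouse. VAT mouse 3 is the highest VAT library for the endothelial (556 CPM), adipocyte (214 CPM) and B and plasma cell (2810 CPM) lists, and VAT mouse 5 for the dendritic cell list (1171 CPM).

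Log2 fold changes (log2FC) of VAT over spleen are given with their standard error (SE). Transcripts of the proteins used in the gate were examined first. Foxp3 was measured at 127, 128, 167, 180.2 and 154 CPM in VAT of mice 1 to 5 and at 126, 162, 118, 151 and 139 CPM in spleen, so the groups overlapped, and the difference did not pass the test (log2FC 0.12, adjusted p = 0.649). Foxp3 overlaps Ccdc22 and Ppp1r3f, and the strand setting of the counting is not given in the sources used here. Cd4 also overlapped (395 ± 75.5 CPM in VAT and 414 ± 63.5 CPM in spleen, SD, n = 5). Il1rl1, which encodes ST2, was low in both but higher in VAT, at 8.42, 9.54, 18.4, 21.9 and 11.8 CPM against 0.374, 0.419, 1.304, 3.32 and 0 CPM, with no overlap (log2FC 3.67, SE 0.73, adjusted p = 0.000342). The ST2+ libraries held 1180 ± 105 CPM of it in VAT and 275 ± 34.6 CPM in spleen.

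Cd44, the adhesion receptor that marks activated T cells, was higher in VAT (296 ± 61.8 CPM) than in spleen (178 ± 35.98 CPM) although both populations were sorted as CD44hi (log2FC 0.74, adjusted p = 0.0113). The call was lost without spleen mouse 1 (log2FC 0.636, adjusted p = 0.058) or without VAT mice 3 and 5 together (log2FC 0.698, adjusted p = 0.0705).

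Of 13173 tested protein-coding genes, 762 (5.78%) were differentially expressed genes (DEGs) by thresholds of 1.5 for the fold change and 0.05 for the adjusted p, with 561 (4.26%) higher and 201 (1.53%) lower in VAT (711 and 523 by limma voom). Without VAT mouse 1 the counts rose to 651 higher and 292 lower, and without VAT mice 3 and 5 together there were 505 DEGs, 449 of them among the 762 and in the same direction. All 5 VAT libraries lay above all 5 spleen libraries for 557 genes (4.23%) and below them for 500 (3.8%), and 321 of the DEGs that were higher and 160 of those that were lower were separated in this way. Each of 414 DEGs was called in all 10 fits that left out 1 of the VAT or spleen libraries.

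The smallest adjusted p among genes higher in VAT belonged to Tnfaip3 (chr10:19000910-19015657, GRCm38), which encodes A20, a ubiquitin-editing brake on NF-kB signalling. It was measured at 1301, 2043, 1673, 1980.4 and 1913 CPM in VAT and at 299.9, 203, 264, 251.6 and 158 CPM in spleen for mice 1 to 5 (log2FC 2.92, SE 0.17, adjusted p = 1.38e-20). VAT mouse 1 was the lowest VAT library, and it too lay far above every spleen library. Rgs2, which shortens signalling by G protein-coupled receptors, was at 527, 916, 669.5, 875 and 724 CPM in VAT and 59.5, 90.4, 80.9, 145 and 58.7 CPM in spleen (log2FC 3.095, SE 0.24, adjusted p = 2.96e-15). Fosl2, an AP-1 subunit, was nearly silent in spleen at 1.496, 1.26, 3.48, 3.32 and 0.703 CPM and reached 35.8, 246, 202, 253 and 108 CPM in VAT (log2FC 6.36, SE 0.49, adjusted p = 2.99e-15). For both genes the groups were apart and VAT mouse 1 was again the lowest VAT library.

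Among the remaining leaders, Crem, a modulator of transcription downstream of cyclic AMP, rose from 51.3 ± 10.9 to 419.5 ± 128 CPM (log2FC 3.03, adjusted p = 7.04e-14), and Dusp5, a nuclear phosphatase of ERK, from 45.4 ± 18.6 to 445 ± 83.8 CPM (log2FC 3.29, adjusted p = 7.82e-14). The interferon gamma receptor subunit Ifngr1 was 1086 ± 234 CPM in VAT and 353 ± 49.3 CPM in spleen (log2FC 1.62, adjusted p = 2.21e-14). P2ry10, a receptor for lysophosphatidylserine, rose by 1.81 on the log2 scale, the ubiquitin ligase gene Rnf125 by 2.04, the ubiquitin-like gene Ubl3 by 1.29 and Vps37b, a subunit of the membrane sorting complex ESCRT-I, by 2.84. None of these genes overlapped between the groups. Vps37b overlaps Hip1r, so its count may hold reads of that gene.

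**Figure D2:**
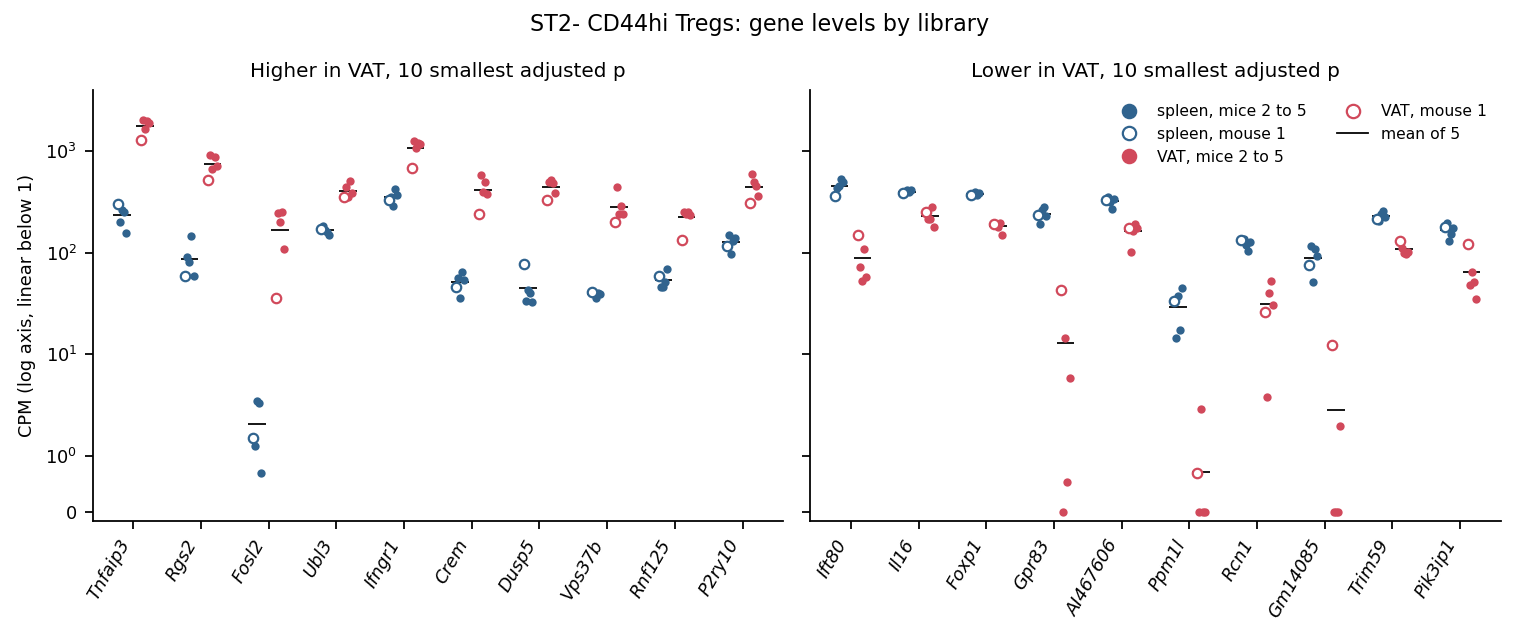
CPM (log axis, linear below 1) of the 10 genes of lowest adjusted p for either direction, with 1 point per library, spleen in blue, VAT in red, mouse 1 as open circles and the mean of 5 as a line. Tnfaip3 spans 1301 to 2043 CPM in VAT and 158 to 299.9 CPM in spleen, and VAT mouse 1 often lies nearest to the spleen values.

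Genes with the largest fold change among those apart in both groups were nearly absent from spleen. Atf3, a stress-induced transcription factor, had 1 count in all spleen libraries together and 10.2, 55.98, 188, 102 and 17.2 CPM in VAT, a pooled ratio of 888-fold (95% exact counting interval 159 to 35103) that was 519.6-fold without VAT mouse 3. Retnla, a secreted factor made by alternatively activated macrophages and in fat, was at 24.9, 72.5, 43.6, 2.67 and 12.3 CPM in VAT and had 0 counts in spleen, at least 131-fold higher against a floor of 3 counts over the spleen group. Gas7, an actin-binding adaptor, was at 1.75, 12.1, 16.96, 48.5 and 32.5 CPM in VAT and 0 in spleen, at least 94.1-fold higher, and it overlaps Glp2r. VAT mouse 3 was highest for Atf3, mouse 2 for Retnla and mouse 4 for Gas7, so these levels varied widely within VAT.

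Acod1, which makes itaconate, was at 6.66, 70.6, 7.75, 42.6 and 8.85 CPM in VAT, a pooled ratio of 296 (52.7 to 11749) that was 190.3 without VAT mouse 2, and the mucin gene Muc1 at 17.5, 52.2, 15.5, 28.3 and 24.1 CPM, a ratio of 161 (44.3 to 1340.3). AA467197 was at 4.21, 3.82, 29.1, 30.9 and 20.2 CPM, a ratio of 215 (38.1 to 8536). In spleen these genes had 1, 2 and 1 counts over all libraries. Anxa1, a phospholipid-binding protein of inflammation control, rose from 2.71 ± 3.45 to 243 ± 141 CPM (log2FC 6.49, SE 0.63, adjusted p = 6.47e-12). Fabp4, the fatty acid carrier of fat and endothelial cells, was at 4.91, 0.636, 199, 2.67 and 6.89 CPM in VAT and had 1 count in spleen, a ratio of 539 (96.3 to 21340). It was highest in VAT mouse 3, which also had the highest endothelial sum, and without that library the ratio was 51.5, its log2 fold change 4.78 and its adjusted p 0.129 (4.34 and 0.225 without VAT mice 3 and 5). The cells were gated on CD45, and the part of endothelial cells in the Fabp4 level was not tested. Retnla and Acod1 are known as macrophage genes. The macrophage sum was highest in VAT mouse 3 and lowest in VAT mice 2 and 4. Acod1 was highest in VAT mice 2 and 4. Retnla was highest in VAT mouse 2, next in VAT mouse 3 and lowest in VAT mouse 4. The part of macrophages in these genes was not tested.

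Stretches before a RefSeq transcript start of Tnfaip3, Areg and Nr4a1 are shown because these genes belong to the NF-kB feedback, repair and T cell receptor-induced groups described below and hold short motifs of AP-1, NF-kB or cyclic AMP-responsive factors. They were chosen after their values were seen. For Tnfaip3 1 of 2 windows is shown, the one with the AP-1 and NF-kB motifs, and the windows of Tnfaip3 and Nr4a1 lie inside the gene as GENCODE draws it, all but the outermost bases for Tnfaip3. The 250 bases before each RefSeq start (GRCm38.p6) were searched on both strands for the AP-1 motif TGANTCA, the NF-kB motif (GGGNN followed directly by TTTCC), the cyclic AMP response element (CRE) TGACGTCA and its core TGACG, which lies inside the CRE. Capitals mark every match. They are the AP-1 motif (136 to 130 bases before the start), the NF-kB motif (12 to 3 bases before it, on the opposite strand) and 1 core (168 to 164 bases before it) for Tnfaip3, the CRE (61 to 54 bases before the start) and 1 further core (115 to 111 bases before it, on the opposite strand) for Areg, and 4 copies of the core on the opposite strand for Nr4a1.
Tnfaip3, chr10:19015411-19015660, minus strand: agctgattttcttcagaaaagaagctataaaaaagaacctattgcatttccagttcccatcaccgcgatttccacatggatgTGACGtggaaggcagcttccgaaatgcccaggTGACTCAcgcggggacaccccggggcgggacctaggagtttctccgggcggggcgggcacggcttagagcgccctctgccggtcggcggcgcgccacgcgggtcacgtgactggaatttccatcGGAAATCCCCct
Areg, chr5:91139349-91139598, plus strand: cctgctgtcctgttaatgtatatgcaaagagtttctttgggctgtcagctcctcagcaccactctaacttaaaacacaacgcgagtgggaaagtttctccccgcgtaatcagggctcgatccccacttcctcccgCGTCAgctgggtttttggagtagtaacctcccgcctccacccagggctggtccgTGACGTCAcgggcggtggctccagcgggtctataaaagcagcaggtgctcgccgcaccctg
Nr4a1, chr15:101266596-101266845, plus strand: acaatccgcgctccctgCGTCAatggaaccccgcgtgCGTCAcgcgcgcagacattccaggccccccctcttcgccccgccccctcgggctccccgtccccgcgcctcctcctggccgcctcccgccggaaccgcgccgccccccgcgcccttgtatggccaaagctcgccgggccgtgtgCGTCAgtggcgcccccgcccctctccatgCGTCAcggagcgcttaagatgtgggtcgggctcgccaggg
Windows were found for 10360 of the tested genes, 13238 windows in all. The AP-1 motif was present in 4.54% of all windows and in 7.01% of the 571 windows of genes higher in VAT, the NF-kB motif in 1.58% and 2.98%, the CRE in 2.5% and 3.5%, and the core in 25.6% and 29.1%. In the 221 windows of genes lower in VAT the shares were 5.88%, 1.81%, 1.81% and 20.4%. These are descriptions of letters in the windows, and binding was not measured.

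Among genes lower in VAT, Ift80, a subunit of the intraflagellar transport complex, had the smallest adjusted p, at 149, 72.5, 52.3, 110.3 and 57.5 CPM in VAT and 362, 431, 459, 529 and 500.1 CPM in spleen (log2FC -2.36, SE 0.303, adjusted p = 2.78e-08). Gpr83, an orphan receptor of the Treg signature, fell from 238, 193, 263, 282 and 229 CPM in spleen to 43.1, 0, 14.5, 0.533 and 5.902 CPM in VAT (log2FC -4.12, SE 0.56, adjusted p = 1.21e-07). Foxp1, a forkhead factor that keeps naive T cells quiescent, was at 194, 193, 178, 196 and 149 CPM in VAT and 373, 372, 399.6, 375 and 389 CPM in spleen (log2FC -1.07, SE 0.14, adjusted p = 1.01e-07). In all of these every VAT library lay below every spleen library, and for Gpr83 and Ift80 VAT mouse 1 was the highest VAT library. Il16, a gene for a CD4-binding cytokine, also fell (log2FC -0.81, adjusted p = 3.22e-08). Foxp1 and Il16 each overlap another gene.

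Ppm1l, a phosphatase of stress kinase signalling, was at 0.702, 0, 2.91, 0 and 0 CPM in VAT and 33.7, 14.6, 37.4, 17.4 and 44.98 CPM in spleen (log2FC -5.18, SE 0.85, adjusted p = 1.09e-05), and the ubiquitin ligase gene Trim59 at 109 ± 13.7 and 229 ± 19.9 CPM (log2FC -1.07, adjusted p = 1.78e-05). Ift80 (chr3:68892499-69004570), Trim59 (chr3:69035288-69044755) and Ppm1l (chr3:69316861-69560802) are neighbours that do not overlap. Pik3ip1, which holds back PI3 kinase, fell by 1.37 on the log2 scale, and Rcn1, an endoplasmic reticulum calcium-binding protein, by 1.99. Gm14085 fell by 4.78 and AI467606 by 0.99. None of these overlapped between the groups.

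The 8 genes with the largest falls had 0 counts in all VAT libraries, and their folds are bounds against 3 counts over the VAT group. Sostdc1, a secreted BMP and Wnt antagonist, was at 31.8, 62.8, 28.3, 26.9 and 11.9 CPM in spleen, at least 112-fold lower in VAT. Gbp2b, a guanylate-binding protein induced by interferon, was at 14.6, 38.1, 19.6, 30.3 and 38.3 CPM, at least 97.6-fold lower, although its near copies could share reads. Dapl1 was at least 64.98-fold, Serpina9 at least 54.1-fold, the keratin gene Krt17 at least 50.5-fold, the calcium release channel Ryr2 at least 50.01-fold, the monocarboxylate transporter gene Slc16a5 at least 40.2-fold and Sytl4 at least 39.3-fold lower. These genes were low in spleen as well, and Krt17 ranged from 0.351 to 43.4 CPM there (at least 25.5-fold lower in VAT without spleen mouse 1). The calls of Serpina9 were lost without any 1 of VAT mice 2, 3, 4 and 5 (adjusted p 0.0562 to 0.0611) and those of Sytl4 without any 1 of VAT mice 1, 2, 3, 4 and 5 and spleen mice 1 and 2 (adjusted p 0.0541 to 0.0699), both as adjusted p, and with VAT mice 3 and 5 left out Krt17 (0.07), Ryr2 (0.0848) and Slc16a5 (0.0847) were lost as well.

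Genes of Treg biology were then counted over 22 lists with 366 tested members, each in 1 list alone. Of these members 89 rose (24.3%) and 20 fell (5.46%), against 4.26% and 1.53% of all tested genes, with a median log2 fold change of 0.27 and 65.8% above 0, beside a median of 0 and 48.8% above 0 over all tested genes. Without VAT mice 3 and 5 the number that fell was 10, and it was 26 without VAT mouse 1. List medians were highest for chemokine receptors (1.47), tissue Treg transcription factors (1.39), AP-1 and immediate early genes (1.25) and S100, annexin and galectin genes (1.01), and lowest for interferon-stimulated genes (-0.85) and quiescence genes (-0.70).

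Without VAT mouse 1 the counts that rose were 10, 8, 15 and 12 for the tissue factor, chemokine receptor, AP-1, and S100, annexin and galectin lists, and without VAT mice 3 and 5 they were 9, 7, 16 and 12. Of the quiescence genes 9 and 5 fell, and of the interferon-stimulated genes 5 and 3. By limma voom on all libraries 12 quiescence and 7 interferon-stimulated genes fell. With only VAT libraries of at least 190 sorted cells 2 and 0 fell. That setting keeps VAT mice 1 and 3 alone, and mouse 1 is the library midway to spleen. In ST2+ Tregs, on other libraries, 11 tissue factors, 6 chemokine receptors, 16 AP-1 genes and 12 S100, annexin and galectin genes rose, and 15 quiescence and 13 interferon-stimulated genes fell. Among the genes named below, Gata3, Cxcr5, Fgl2, Hspa1a, Irf9, Cyp51, S100a4 and Itga1 overlap another annotated gene, so their counts may hold its reads. Beside the calls given elsewhere as ending without VAT mice 3 and 5, those of Serpina9, Sytl4, Ikzf4, Maf, Zeb2, Lef1, Il18rap, Ccr1, Nt5e, Havcr2, Cd200, Cd69, Gbp2, Cd36, Cyp51 and Itga1 ended too (adjusted p 0.082 to 0.288). With 3 VAT libraries left each kept its direction, with log2 fold changes such as -8.01 for Serpina9, 3.19 for Zeb2, 1.37 for Il18rap and 1.05 for Cyp51.

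**Figure D3:**
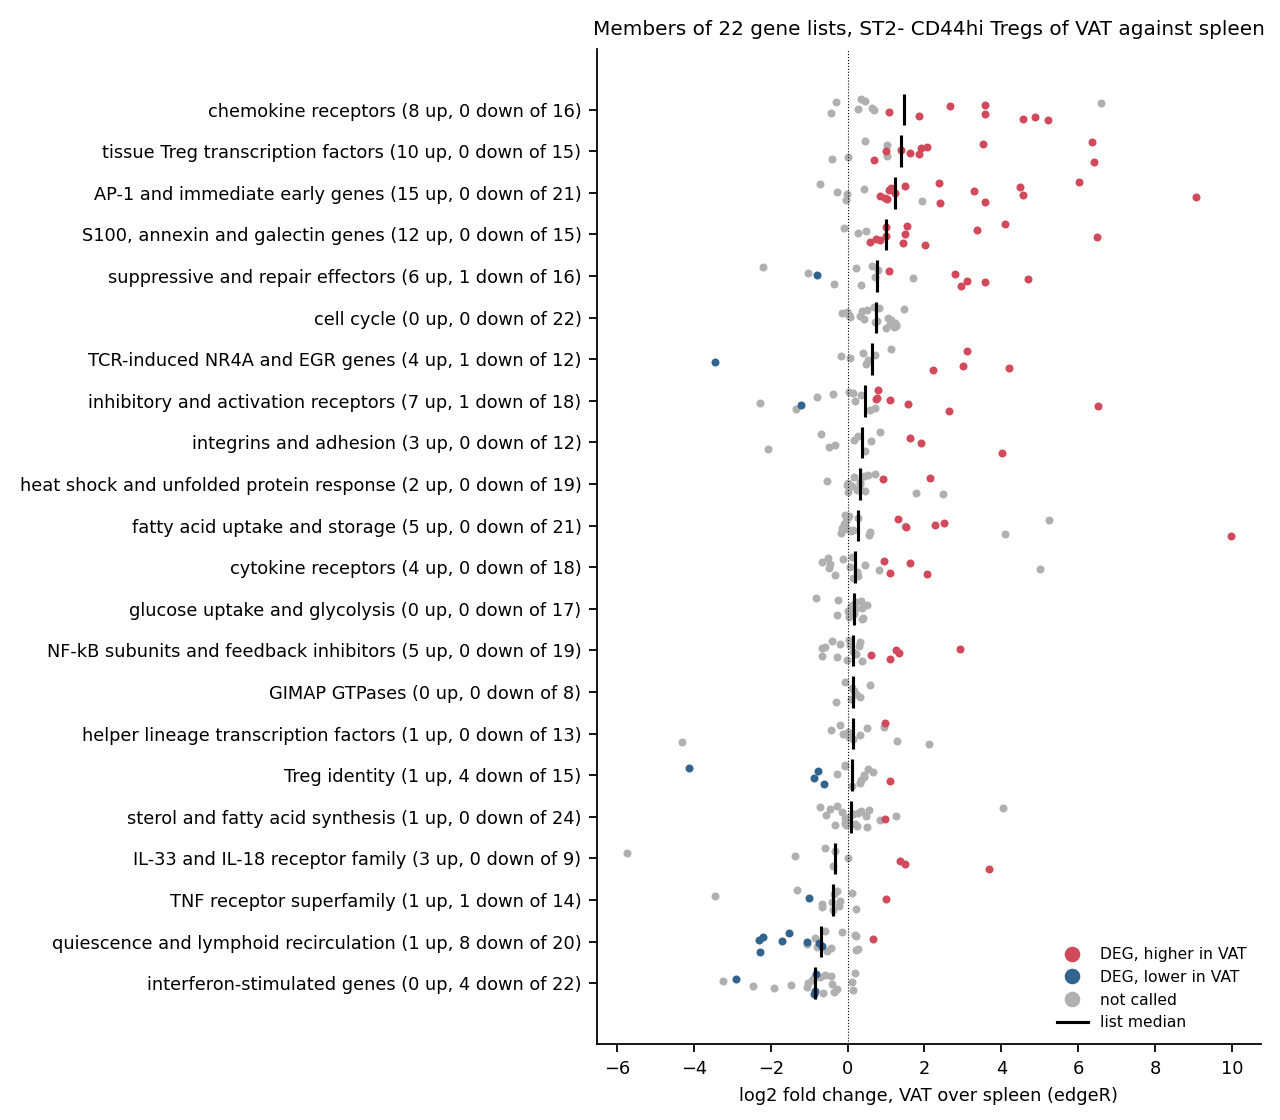
The log2 fold change of VAT over spleen in ST2- CD44hi Tregs for each tested member of 22 gene lists, with DEGs higher in VAT in red, DEGs lower in blue, genes not called in grey and the list median as a bar. Lists are ordered by median, from chemokine receptors (1.47) to interferon-stimulated genes (-0.85).

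Of 15 tested Treg identity genes, 1 rose, 4 fell and 10 did not pass, with a median of 0.12. Ctla4, the inhibitory receptor that strips CD80 and CD86 from antigen-presenting cells, rose from 366, 458, 423, 426 and 482 CPM in spleen to 685, 1126, 900.1, 919 and 983 CPM in VAT with no overlap (log2FC 1.097, SE 0.14, adjusted p = 2.69e-08). Besides Gpr83, the genes that fell were Il2ra, the high-affinity IL-2 receptor chain CD25 (372, 194, 214, 244 and 274 CPM in VAT and 367, 361, 383, 505 and 370.0 CPM in spleen, log2FC -0.61, adjusted p = 0.00959), the folate receptor family gene Izumo1r (log2FC -0.76, adjusted p = 0.00995) and the transcription factor Ikzf4 (log2FC -0.88, adjusted p = 0.0347). Il2ra overlapped through VAT mouse 1, which at 372 CPM lay within the spleen range. It was not a DEG without VAT mouse 2 or 3, where the fold fell below the threshold, nor without spleen mouse 4 (adjusted p 0.0578). The call of Ikzf4 was lost without any 1 of VAT mice 2, 3, 4 and 5 and spleen mice 1, 2, 3 and 5 (adjusted p 0.0526 to 0.106). Without VAT mice 3 and 5, Il2ra (log2FC -0.554, adjusted p 0.0943) and Izumo1r (log2FC -0.628, adjusted p 0.138) did not pass. Ikzf2, which encodes Helios, was at 1193 ± 154 and 932 ± 149.6 CPM (adjusted p = 0.158).

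Among 15 transcription factors tied to tissue Tregs, 10 rose and 0 fell. Pparg was at 19.6, 0, 48.9, 75.7 and 43.8 CPM in VAT and had counts in only 1 spleen library (0, 0, 0, 0 and 1.76 CPM), so the groups overlapped at 0 in VAT mouse 2 (log2FC 6.398, SE 1.36, adjusted p = 0.00104). Bhlhe40, a repressor of activated T cells, rose from 141 ± 43.3 to 589.9 ± 115 CPM (log2FC 2.06, adjusted p = 6.37e-09), and Rora, a nuclear receptor of type 2 lymphoid cells, from 126, 128, 120.4, 165 and 147 to 310.1, 703, 475, 541 and 466 CPM (log2FC 1.86, SE 0.29, adjusted p = 3.36e-06). The groups did not overlap for these genes. Id2, an inhibitor of E proteins, rose by 1.62 on the log2 scale, Rbpj, the effector of Notch signalling, by 1.91, Nfil3 by 1.39 and Gata3, the type 2 helper factor, by 0.68 (123 ± 19.6 to 198 ± 19.2 CPM).

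Fosl2, described above, was among these factors, and Maf (log2FC 0.998, adjusted p = 0.0211) and Zeb2 (log2FC 3.52, adjusted p = 0.0361) completed the 10. Zeb2, a zinc finger repressor, was the least stable, with 0 CPM in VAT mouse 2, and with each mouse as a block its adjusted p was 0.0677. Its call was lost without any 1 of VAT mice 3, 4 and 5 and spleen mice 2, 3, 4 and 5 (adjusted p 0.0607 to 0.0937) and that of Maf without any 1 of VAT mice 4 and 5 and spleen mice 1 and 2 (adjusted p 0.0511 to 0.0673). Batf (171 ± 30.2 CPM in VAT and 227 ± 32.97 CPM in spleen, adjusted p = 0.122) and Irf4 (80.8 ± 56.1 and 80.7 ± 33.6 CPM, log2FC 0.01), which drive effector Treg programs, did not pass.

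The quiescence and lymphoid recirculation list moved mostly downward, with 8 of 20 tested genes lower and 1 higher. By limma voom 12 were lower and 0 higher, and with only VAT libraries of at least 190 sorted cells (mice 1 and 3) 2 were lower and 0 higher. Id3, an E protein inhibitor of naive and central cells, fell from 193, 244, 209, 203 and 183 CPM in spleen to 68.4, 27.4, 61.5, 22.9 and 28.5 CPM in VAT (log2FC -2.29, SE 0.47, adjusted p = 0.000444), and Satb1, a chromatin organizer, from 142, 180.4, 156, 162 and 127 to 55.1, 8.91, 97.9, 19.2 and 49.2 CPM (log2FC -1.71, SE 0.403, adjusted p = 0.00307). Neither overlapped. Foxo1, which maintains homing and survival genes, fell by 0.73 on the log2 scale, the IL-6 receptor gene Il6ra by 1.52 and the B follicle receptor gene Cxcr5 by 2.19. The Cxcr5 level in VAT ran from 0 to 149 CPM, highest in VAT mouse 1. Without VAT mice 3 and 5 its log2 fold change was -1.83 and its adjusted p 0.14.

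Lef1 also fell (log2FC -0.67, adjusted p = 0.0264), a call lost without any 1 of VAT mice 3, 4 and 5 and spleen mouse 3 (adjusted p 0.0554 to 0.0896). Il7r, the IL-7 receptor, was the member that rose (292 ± 79.99 to 460.1 ± 159 CPM, log2FC 0.65, adjusted p = 0.0113), and its call was lost without any 1 of VAT mice 2 and 4 and spleen mouse 1 (adjusted p 0.058 to 0.0969). Not every recirculation gene was called. Ccr7, the lymph node chemokine receptor, was at 401, 478, 353, 24.5 and 302 CPM in VAT and 435, 444, 423, 517 and 433 CPM in spleen (adjusted p = 0.513), with a low value in VAT mouse 4 alone. S1pr1, the exit receptor, was at 435 ± 76.6 and 376 ± 26.6 CPM (adjusted p = 0.592) and Klf2, its activator, at 157 ± 52.6 and 129 ± 18.6 CPM (adjusted p = 0.347). Tcf7 was at 276 ± 111 and 481 ± 60.5 CPM (adjusted p = 0.121), and it passed with each mouse as a block.

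Chemokine receptors had the highest median, and 8 of 16 tested genes rose while 0 fell. Ccr2, the receptor for monocyte chemoattractants, was at 187, 492, 567, 576 and 563 CPM in VAT and 41.9, 13.8, 1.74, 26.1 and 15.5 CPM in spleen (log2FC 4.57, SE 0.502, adjusted p = 3.08e-10), and Cxcr6, a receptor of resident lymphocytes, at 255, 509.5, 408, 464 and 542 and 28.05, 25.1, 22.6, 16.99 and 88.2 CPM (log2FC 3.57, SE 0.48, adjusted p = 1.22e-07). The groups were apart, with VAT mouse 1 the lowest VAT library in both. Cxcr4 rose from 31.6 ± 12.7 to 201 ± 30.2 CPM (log2FC 2.66, adjusted p = 1.15e-10) and Ccr3, the eotaxin receptor, from 0.374, 0, 6.52, 0 and 9.84 to 21.4, 26.7, 116, 164 and 182 CPM (log2FC 4.88, adjusted p = 1.58e-05). Ccr4 (log2 fold change 1.86) and Ccr8 (1.07), receptors of activated and skin-homing Tregs, rose less. Cxcr3, the receptor of type 1 inflammation, was higher in each VAT library (537 ± 51.4 CPM) than in spleen (344 ± 20.3 CPM) without passing the test (adjusted p = 0.359).

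Ccr1 had 1 count in spleen and 0, 0, 15.5, 6.93 and 3.44 CPM in VAT, a pooled ratio of 63.1 (10.84 to 2541) (30.3 without VAT mouse 3), and its call was lost without any 1 of VAT mouse 3 and spleen mice 1, 2, 4 and 5 (adjusted p 0.0514 to 0.151). The Ccr8 call was lost without any 1 of spleen mice 2 and 5 (adjusted p 0.0526 to 0.0553). Cxcr6 overlaps Fyco1, whose reads may enter its count.

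In the IL-33 and IL-18 receptor family, 3 of 9 tested genes rose and 0 fell by edgeR. The median log2 fold change was -0.33, and no member other than the 3 had a positive value. By limma voom 3 were called lower and by DESeq2 1. Beside Il1rl1, the IL-18 receptor chain Il18r1 was at 172, 451, 285, 347 and 264 CPM in VAT and 81.5, 114, 73.04, 132 and 134 CPM in spleen with no overlap (log2FC 1.502, SE 0.33, adjusted p = 0.00148), and its partner Il18rap at 127 ± 40.4 and 48.9 ± 16.6 CPM (log2FC 1.37, adjusted p = 0.0296), a call lost without any 1 of VAT mice 2, 3 and 4 and spleen mice 2, 4 and 5 (adjusted p 0.0522 to 0.0934). Of 18 other cytokine receptors 4 rose, namely Ifngr1, the type I interferon receptor Ifnar1 (log2FC 0.95, adjusted p = 0.000315), Il10ra (log2FC 1.09, adjusted p = 0.00705) and Il9r (log2FC 2.07, adjusted p = 0.00693). Without VAT mice 3 and 5, Il10ra (log2FC 0.911, adjusted p = 0.0874) and Il9r (log2FC 1.78, adjusted p = 0.068) did not pass. In the TNF receptor superfamily, 1 of 14 genes rose, Cd40lg, and 1 fell, the death receptor Fas (123 ± 23.6 to 61.2 ± 23.4 CPM, adjusted p = 0.00805). The list holds Cd40lg as a ligand of the family (log2FC 0.99, adjusted p = 0.0107). Its call was lost without VAT mouse 3 (log2FC 0.854, adjusted p 0.053) or VAT mice 3 and 5 (log2FC 0.732, adjusted p 0.173).

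Suppressive and repair effectors rose in 6 of 16 tested genes and fell in 1. Il10, the suppressive cytokine, was at 106, 120.2, 136, 67.7 and 211 CPM in VAT and 24.3, 11.7, 4.35, 12.02 and 29.9 CPM in spleen (log2FC 2.94, SE 0.39, adjusted p = 8.73e-08). Areg, an epidermal growth factor receptor ligand of tissue repair, was at 126, 352, 225, 280.4 and 188 and 8.23, 15.1, 26.96, 19.5 and 27.8 CPM (log2FC 3.58, SE 0.35, adjusted p = 7.64e-12). The groups were far apart for both. Fgl2, a secreted suppressor, rose from 20.2, 63.2, 30.0, 37.7 and 53.8 to 204, 249, 391, 444 and 473 CPM (log2FC 3.101, adjusted p = 1.16e-09), and Gzmb, the cytotoxic protease granzyme B, from 7.09 ± 8.95 to 183 ± 63.1 CPM (log2FC 4.69, adjusted p = 5.16e-07). Lgals1 (1.08 on the log2 scale) and Ctla2a (2.796) completed the list, and Ctla2a shares sequence with Ctla2b. Nt5e, the adenosine-producing enzyme CD73, fell from 535 ± 39.7 to 308 ± 114 CPM (log2FC -0.796, adjusted p = 0.0257), a call lost without any 1 of VAT mice 2, 3 and 5 and spleen mice 2 and 3 (adjusted p 0.0501 to 0.109).

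Of 18 inhibitory and activation receptors, 7 rose and 1 fell. The costimulatory receptors Icos (337, 383, 457, 366 and 397 CPM in spleen to 626, 961, 856, 901 and 789 CPM in VAT, log2FC 1.09, SE 0.15, adjusted p = 1.72e-07) and Cd28 (log2FC 0.78, adjusted p = 2.52e-06) rose, as did Cd200r1, the receptor for the inhibitory ligand CD200 (86.7 ± 28.0 to 257 ± 74.7 CPM, log2FC 1.56, adjusted p = 9.09e-06). Its ligand gene Cd200 fell (log2FC -1.22, adjusted p = 0.0295), a call lost without any 1 of VAT mice 2, 3, 4 and 5 and spleen mice 1 and 4 (adjusted p 0.0522 to 0.093). Klrg1, which marks terminally differentiated effector Tregs, spanned 18.6, 102, 386, 520.3 and 522 CPM in VAT and 28.8, 28.5, 41.7, 24.9 and 124 CPM in spleen (log2FC 2.63, SE 0.51, adjusted p = 0.00023), and VAT mouse 1 lay below all spleen libraries. Cd69, an early activation and retention marker, rose (log2FC 0.75, adjusted p = 0.0217) but lost its call without any 1 of VAT mice 3, 4 and 5 and spleen mice 1 and 3 (adjusted p 0.0546 to 0.108). Havcr2, which encodes TIM-3, had 0 counts in spleen and 4.21, 1.91, 17.9, 0 and 2.95 CPM in VAT, at least 22.7-fold higher (at least 9.54-fold without VAT mouse 3), and was lost without VAT mouse 3 (adjusted p 0.0658). Pdcd1, which encodes PD-1, was at 616 ± 167 and 414 ± 51.7 CPM (adjusted p = 0.405).

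Of 21 AP-1 and immediate early genes, which cells induce soon after stimulation or stress, 15 rose and 0 fell. Fos was at 336, 847, 945, 1259.7 and 884 CPM in VAT and 33.3, 399, 64.8, 274 and 37.95 CPM in spleen (log2FC 2.401, SE 0.51, adjusted p = 0.00073). The groups overlapped, since spleen mouse 2 lay above VAT mouse 1. Fosb was at 7.37, 125, 175, 289 and 222 and 0, 21.3, 12.2, 17.4 and 17.2 CPM (log2FC 3.58, SE 0.61, adjusted p = 1.92e-05), and VAT mouse 1 lay within the spleen range. Cdkn1a, the cell cycle inhibitor p21, was at 74.7, 68.7, 122, 76.8 and 85.6 and 1.87, 0.837, 1.74, 0.829 and 1.05 CPM with no overlap (log2FC 6.01, SE 0.66, adjusted p = 2.71e-10). Klf6 rose from 315 ± 65.7 to 887 ± 280.1 CPM (log2FC 1.495, adjusted p = 8.48e-10), Gadd45b, a stress sensor, from 62.9 ± 14.2 to 326 ± 69.5 CPM (log2FC 2.37, adjusted p = 2.95e-08) and Klf4 from 2.28 ± 2.396 to 53.4 ± 39.9 CPM (log2FC 4.48, adjusted p = 4.39e-07).

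Junb (1.03), Jund (0.96), Ier2 (0.85), Ier3 (4.56), Btg2 (1.14), the mRNA-destabilizing gene Zfp36 (1.08) and the MAP kinase phosphatase Dusp1 (1.24), given as log2 fold changes, also rose, with Atf3 and Dusp5 as described. Junb and Dusp1 overlap other genes. Jun was at 141, 142, 219.9, 238 and 231 CPM in VAT and 60.2, 391, 169, 278 and 109.6 CPM in spleen (adjusted p = 0.987), and Myc, a growth regulator, at 117 ± 30.9 and 193 ± 61.6 CPM (adjusted p = 0.119). Of 12 genes of the NR4A and EGR list, which report T cell receptor signals, 4 rose and 1 fell. Nr4a1 was at 343, 585, 534, 508 and 447 CPM in VAT and 225, 84.96, 97.4, 49.7 and 63.3 CPM in spleen (log2FC 2.21, SE 0.38, adjusted p = 1.97e-05), Nr4a2 at 232 ± 89.2 and 12.6 ± 11.9 CPM (log2FC 4.203, adjusted p = 1.35e-08) and Nr4a3 at 146 ± 85.4 and 18.1 ± 9.36 CPM (log2FC 3.01, adjusted p = 1.18e-07). All 3 were apart between the groups.

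Egr2, which limits T cell activation, went the other way, at 5.96, 0, 19.9, 17.6 and 5.902 CPM in VAT and 106, 123, 112, 62.6 and 137 CPM in spleen (log2FC -3.44, SE 0.99, adjusted p = 0.0225). Its call was lost without any 1 of VAT mice 2 and 5 (adjusted p 0.0574 to 0.0588) or VAT mice 3 and 5 (0.0798). The log2 fold change was -3.14 without VAT mouse 2, -3.31 without VAT mouse 5 and -3.77 without VAT mice 3 and 5. Egr1 overlapped, at 60.3, 88.4, 479, 58.1 and 66.9 and 131, 133, 66.5, 68.4 and 139 CPM (adjusted p = 0.659), with 1 high value in VAT mouse 3. Of 19 NF-kB subunits and feedback inhibitors 5 rose. Beside Tnfaip3 these were Nfkbid (176 ± 24.5 to 447 ± 109 CPM, log2FC 1.34, adjusted p = 1.78e-05), Nfkbiz (log2FC 1.26, adjusted p = 8.33e-07), the subunit Rel (log2FC 1.101, adjusted p = 0.000104) and Nfkbia (log2FC 0.597, adjusted p = 0.00475). Nfkbia encodes IkBα, and its fold sat at the threshold, so that it was not a DEG with each mouse as a block (log2 fold change 0.57) or without any 1 of VAT mice 2 and 4 and spleen mice 1 and 5. Without VAT mouse 2 its adjusted p was 0.0725. Nfkb1 (adjusted p = 0.242) and Rela (0.281) did not pass.

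Lungs were digested like VAT and enriched on beads like spleen. The resting Tregs of lungs and spleen, which are other libraries of the same mice, were set beside these lists. Of all tested genes 15.7% had a mean at least 1.5-fold higher in resting Tregs of lungs than of spleen, and of the 561 genes higher in VAT ST2- CD44hi Tregs 49% did (275 genes). The share was 93.3% for the AP-1 and immediate early genes that rose (14 of 15), all 4 of the NR4A and EGR genes, 4 of 5 NF-kB genes, 7 of 8 chemokine receptors, 7 of 10 tissue Treg factors and 5 of 12 S100, annexin and galectin genes. Nr4a1 was at 544 ± 133 CPM in resting Tregs of lungs and 63.6 ± 32.1 CPM in those of spleen, and Tnfaip3 at 2017 ± 309 and 219.9 ± 83.8 CPM. Ccr2 was at 5.799 ± 9.13 CPM in resting Tregs of lungs and 0.306 ± 0.505 CPM in those of spleen, and Il10 at 0.632 ± 0.458 and 0 CPM. Of the 201 genes lower in VAT, 31.3% were at least 1.5-fold lower in resting Tregs of lungs, beside 16.6% of all tested genes. The part of digestion in the VAT difference was not tested.

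Heat shock and unfolded protein response genes included 2 of 19 that rose, which were Atf4 (log2FC 0.92, adjusted p = 1.29e-06) and Dnajb9 (log2FC 2.16, adjusted p = 2.51e-07). Hspa1a (adjusted p = 0.156) and Hspa1b (0.226), near-identical inducible chaperone genes whose reads cannot be assigned with certainty, did not pass. Interferon-stimulated genes included 4 of 22 lower, 0 higher and a median of -0.85. By limma voom 7 were lower, and with only VAT libraries of at least 190 sorted cells (mice 1 and 3) 0 were. Irf9, a mediator of interferon signals, fell by 0.86 on the log2 scale and Usp18 by 2.900, while Isg15 was at 31.7 ± 12.01 and 28.9 ± 6.34 CPM (adjusted p = 0.917). Usp18 did not overlap between groups. The call of Gbp2 (log2FC -0.83, adjusted p = 0.0361) was lost without any 1 of VAT mice 2, 3, 4 and 5 and spleen mice 1, 2, 3 and 5 (adjusted p 0.0516 to 0.108).

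Of 21 tested genes of fatty acid uptake and storage 5 rose. Hilpda, an inhibitor of lipolysis on lipid droplets, was at 141, 371, 269, 285 and 320.2 CPM in VAT and 65.8, 48.5, 46.96, 38.1 and 42.5 CPM in spleen (log2FC 2.51, SE 0.23, adjusted p = 1.72e-12). Plin2, a lipid droplet coat protein, was at 82.8, 188, 221, 302 and 339 and 41.9, 63.2, 51.3, 31.5 and 47.4 CPM (log2FC 2.27, SE 0.49, adjusted p = 0.00118), and Dgat1, which makes triglycerides, at 226 ± 45.4 and 78.8 ± 12.1 CPM (log2FC 1.51, adjusted p = 1.41e-05). Cpt1a, which brings fatty acids into mitochondria, rose from 79.1 ± 14.9 to 196 ± 27.3 CPM (log2FC 1.31, adjusted p = 0.000874). These 4 were apart between the groups. Cd36, a fatty acid transporter that endothelial cells and macrophages also carry, was at 9.12, 0, 265, 8.53 and 19.2 CPM in VAT and had 0 counts in spleen, at least 254-fold higher (at least 38.7-fold without VAT mouse 3, the highest library), and its call was lost without VAT mouse 3 (adjusted p 0.0915). Fabp5 was at 39.7 ± 4.197 and 26.3 ± 5.57 CPM (adjusted p = 0.305).

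Sterol synthesis, glycolysis and cell cycle genes did not form a called group. Of 24 sterol and fatty acid synthesis genes 1 rose, Cyp51 (log2FC 0.97, adjusted p = 0.0419), a call lost without any 1 of VAT mice 2, 3 and 4 and spleen mice 1, 2, 3 and 5 (adjusted p 0.0644 to 0.117). Of 17 glycolysis genes 0 were DEGs by edgeR (3 at an unadjusted p under 0.05) and 1 by DESeq2 and limma voom each, and Ldha passed the test but not the fold (log2 fold change 0.36, adjusted p = 0.0412). Of 22 cell cycle genes 0 were called by edgeR (3 at an unadjusted p under 0.05), 1 by DESeq2 and 2 by limma voom, and 20 had a positive log2 fold change, with a median of 0.74, and Mki67 was at 120.0, 103, 93.5, 124 and 148 CPM in VAT and 99.1, 28.9, 56.1, 78.7 and 33.03 CPM in spleen (adjusted p = 0.354). Of 8 GIMAP genes, lymphocyte survival GTPases, 0 were called by edgeR (2 at an unadjusted p under 0.05) and 1 by DESeq2.

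S100, annexin and galectin genes rose in 12 of 15 cases and fell in 0. Lgals3, a secreted lectin, was at 132, 247, 225, 241 and 232 CPM in VAT and 23.2, 20.5, 32.2, 7.87 and 19.7 CPM in spleen (log2FC 3.38, SE 0.45, adjusted p = 7.83e-08), and Lmna, which encodes the nuclear lamins A and C and was placed in the same list, at 50.5, 186, 296, 352 and 289 and 12.7, 7.11, 3.91, 26.1 and 17.6 CPM (log2FC 4.103, SE 0.46, adjusted p = 4.44e-10). S100a4, a calcium-binding protein of motile effector cells, rose from 16.8 ± 5.17 to 67.6 ± 20.7 CPM (log2FC 2.002, adjusted p = 6.9e-05), S100a6 from 105 ± 17.97 to 285 ± 64.5 CPM (log2FC 1.44, adjusted p = 7.61e-05), and the intermediate filament gene Vim from 350.2 ± 21.7 to 701 ± 100.4 CPM (log2FC 1.001, adjusted p = 2.29e-09). Crip1 (1.54), Anxa2 (1.01), Anxa4 (1.498), S100a11 (0.84) and S100a13 (0.74), as log2 fold changes, rose with Anxa1. S100a10 (log2FC 0.59, adjusted p = 0.00654) was not a DEG with each mouse as a block (log2 fold change 0.58) or without any 1 of VAT mouse 2 and spleen mice 1, 3 and 5, and without VAT mouse 2 its adjusted p was 0.0709.

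Of 12 integrin genes 3 rose, which were Itgav (94.6, 94.6, 90.4, 99.9 and 105 CPM in spleen to 208, 368, 276, 562 and 407 CPM in VAT, log2FC 1.91, SE 0.302, adjusted p = 4.75e-06), its partner Itgb3 (log2FC 1.62, adjusted p = 0.000118) and the collagen-binding Itga1 (log2FC 4.01, adjusted p = 0.0217), whose call was lost without any 1 of VAT mouse 3 and spleen mice 1, 3 and 4 (adjusted p 0.0622 to 0.0641). Among 13 helper lineage factors 1 rose, Ikzf3, which encodes Aiolos (log2FC 0.98, adjusted p = 0.000401). Tbx21, the type 1 factor T-bet, was at 66.3, 62.98, 164, 224 and 217 CPM in VAT and 22.4, 20.5, 57.8, 54.3 and 14.8 CPM in spleen, apart in every library, with an adjusted p of 0.174.

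To see where VAT stood among tissues, the ST2- CD44hi Tregs of all 6 were ordered by mean CPM. The genes were chosen by VAT and spleen values that enter this order, so these shares are a description. For the 561 genes higher in VAT than in spleen, VAT held the first rank for 102 (18.2%), the second for 169 (30.1%) and the third for 215 (38.3%), and spleen was the lowest tissue for 334 (59.5%). Over all tested genes these shares were 11.2%, 18.5%, 22% and 14.5%. For the 201 genes lower in VAT, VAT was the lowest tissue for 78 (38.8%) and spleen the highest for 110 (54.7%), beside 10.1% and 18.6% of all tested genes. Fosl2 was at 169 ± 94.2 CPM in VAT, 396 ± 72.3 in skin, 124 ± 46.3 in colon, 52.3 ± 21.9 in lungs, 2.05 ± 1.26 in spleen and 0.521 ± 0.419 in blood (mean ± SD, n = 5), so that VAT and colon overlapped and skin was highest. Gata3 was at 198 ± 19.2 CPM in VAT, 338 ± 34.3 in skin, 221 ± 43.6 in colon, 175 ± 20.7 in lungs, 123 ± 19.6 in spleen and 130.2 ± 21.5 in blood, where the ranges of the lung, VAT and colon libraries overlapped. Pparg was at 37.6 ± 28.96 CPM in VAT, 7.73 ± 8.004 in skin, 3.66 ± 5.73 in colon, 3.12 ± 2.396 in lungs, 0.351 ± 0.786 in spleen and 7.01 ± 10.3 in blood, and Retnla at 31.2 ± 27.7 CPM in VAT, 0.352 ± 0.787 in skin, 2.92 ± 4.01 in colon, 0.522 ± 1.17 in lungs, 0 in spleen and 0 in blood. VAT had the highest mean for both, and Gpr83, at 12.8 ± 17.9 CPM in VAT, 0.117 ± 0.262 in skin, 61.4 ± 36.4 in colon, 75.5 ± 17.5 in lungs, 241 ± 34.2 in spleen and 240.1 ± 87.3 in blood, was lower than in VAT only in skin.

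**Figure D4:**
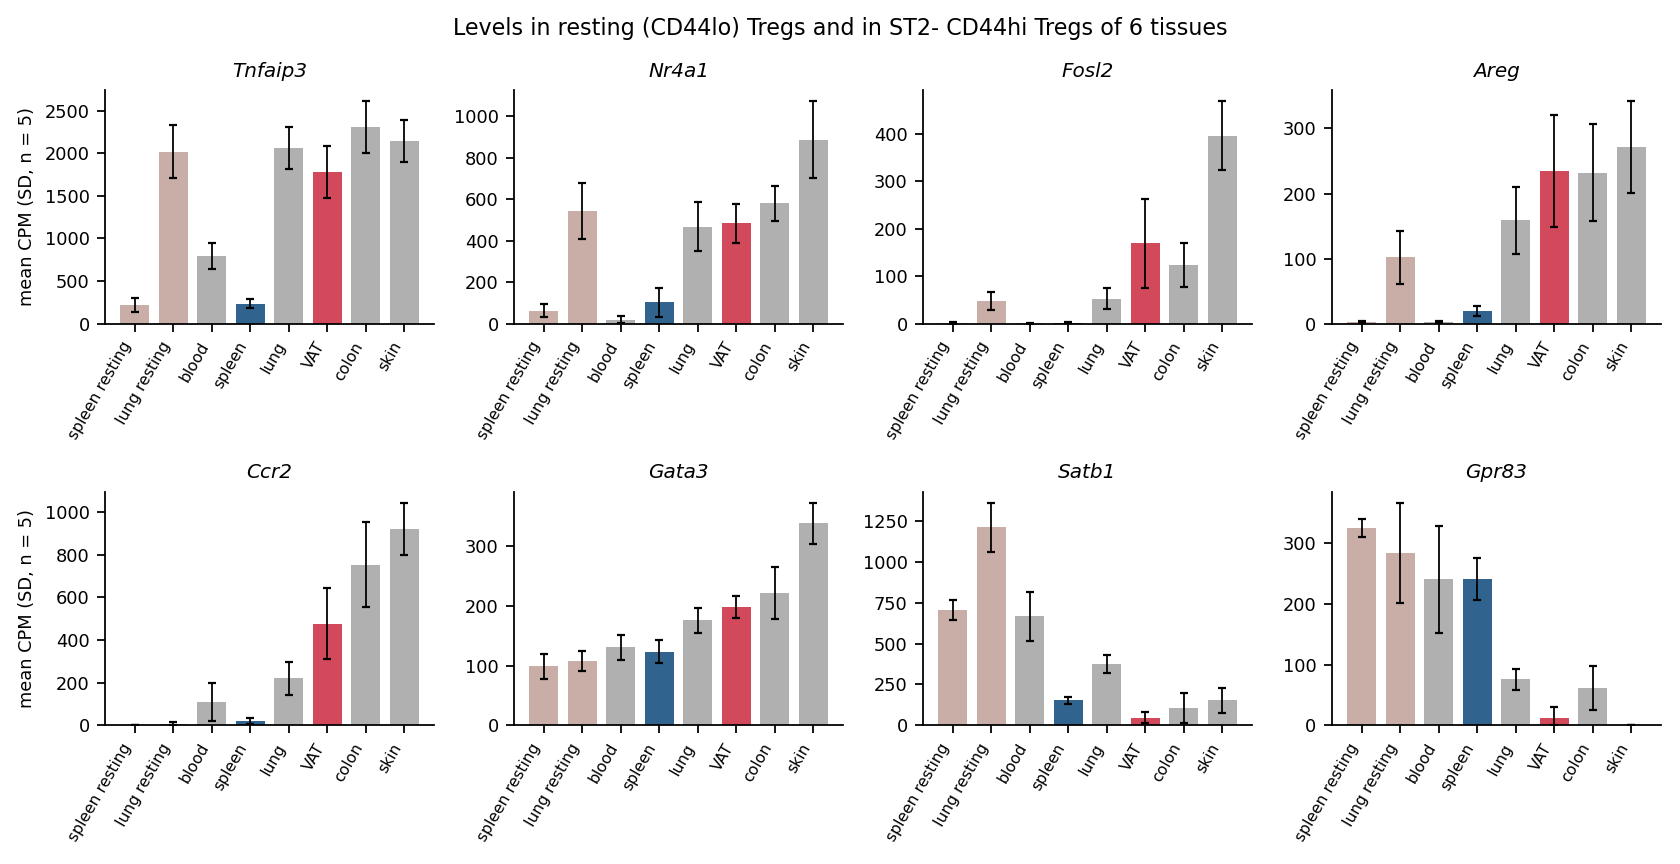
Mean CPM with SD (n = 5) of 8 genes in resting Tregs of both spleen and lungs and in ST2- CD44hi Tregs of 6 tissues, with spleen in blue and VAT in red. Tnfaip3, Nr4a1, Fosl2 and Areg are also higher in resting Tregs of lungs than in those of spleen, Ccr2 has means of 5.80 and 0.306 CPM in the resting groups of lungs and spleen, Satb1 has its lowest mean in VAT, and in ST2- CD44hi Tregs Gpr83 has lower means in lungs, VAT, colon and skin than in blood and spleen.

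The same tissue comparison was made in ST2+ CD44hi Tregs, on other libraries of the same mice. There 1477 genes (11.2%) were DEGs, 773 higher (5.87%) and 704 lower (5.34%) in VAT. Of the genes higher in VAT in ST2- Tregs, 372 were higher in ST2+ Tregs as well (66.3% of the ST2- and 48.1% of the ST2+ calls), and of the lower genes 117 were shared (58.2% and 16.6%). Called in opposite directions were 2 of the higher genes and 1 of the lower. The difference between the populations was tested as an interaction, which called 58 genes (0.44%), with 41 (0.311%) more positive and 17 (0.129%) more negative in ST2- Tregs, and 1202 genes (9.12%) had an unadjusted p under 0.05. Of the 58, 39 were DEGs in ST2+ Tregs alone, 8 in ST2- Tregs alone, 7 in both with the same sign, 3 in both with opposite sign and 1 in neither. The count rested on single libraries, being 30 without VAT mouse 2 and 31 to 37 without any 1 of the spleen libraries, and 17 when only the 4 groups compared were fitted. It was 139 by DESeq2, 113 by limma voom and 137 by limma voom with each mouse as a block.

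Il18r1 moved in opposite directions in the populations. It was at 304 ± 103 CPM in VAT and 107 ± 28.3 CPM in spleen in ST2- Tregs, and 80.5 ± 69.3 and 209 ± 46.7 CPM in ST2+ Tregs, a log2FC of 1.502 in ST2- and -1.36 in ST2+ Tregs (interaction 2.87, SE 0.47, adjusted p = 0.000276). Cldnd1, a claudin domain protein, rose in ST2- Tregs (0.81) and fell in ST2+ Tregs (-0.61, interaction 1.42, adjusted p = 0.000276). The ubiquitin ligase gene Rnf138 rose by 1.04 in ST2- Tregs and had a log2FC of -0.26 in ST2+ Tregs (interaction 1.298, SE 0.21, adjusted p = 0.000276). Slamf6, a receptor kept by less differentiated T cells, was at 507 ± 97.5 CPM in VAT and 633 ± 59.4 CPM in spleen in ST2- Tregs, and 132 ± 55.5 and 494 ± 53.4 CPM in ST2+ Tregs (interaction 1.58, adjusted p = 9.45e-05). Cd96, an inhibitory receptor for the poliovirus receptor, had an interaction of the same sign as Slamf6 (interaction 1.96, adjusted p = 0.000402), at 304 ± 52.5 CPM in VAT and 472 ± 35.4 CPM in spleen in ST2- Tregs, and 72.2 ± 55.4 and 442 ± 66.9 CPM in ST2+ Tregs. In ST2+ Tregs both fell, with a log2FC of -1.903 and -2.59, and they did not pass in ST2- Tregs (adjusted p = 0.254 and 0.0841).

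In the other direction, Il2ra was at 259.7 ± 69.8 CPM in VAT and 397 ± 60.9 CPM in spleen in ST2- Tregs, and 804 ± 259 and 439 ± 40.3 CPM in ST2+ Tregs (interaction -1.48, SE 0.23, adjusted p = 9.45e-05). It therefore fell in VAT in ST2- and rose in ST2+ Tregs. The transcription factor Klf7 was at 25.6 ± 10.1 CPM in VAT and 42.4 ± 9.73 CPM in spleen in ST2- Tregs (adjusted p = 0.0896) and rose by 1.31 in ST2+ Tregs (interaction -2.04, adjusted p = 0.00227). Cpm, the gene of carboxypeptidase M, rose in both, by 0.95 in ST2- and 2.03 in ST2+ Tregs (interaction -1.08, adjusted p = 0.00262). Gm2a, a lysosomal lipid transfer protein, was at 267 ± 68.7 CPM in VAT and 198 ± 21.01 CPM in spleen in ST2- Tregs, and 649 ± 112 and 215 ± 29.99 CPM in ST2+ Tregs (interaction -1.16, adjusted p = 0.0113). Ppm1l, lower in VAT in ST2- Tregs as given above, was at 24.1 and 31.9 CPM in ST2+ Tregs (interaction -4.78, adjusted p = 0.0181). With all 70 libraries in the fit, the calls of Cpm and Gm2a ended (adjusted p = 0.416 and 0.318). With only VAT libraries of at least 190 sorted cells, which keeps mice 1 and 3 of ST2- VAT Tregs, mouse 1 being the library midway to spleen, those of Rnf138 (0.0759), Cldnd1 (0.0506), Gm2a (0.253) and Ppm1l (0.297) ended. With only the 4 groups compared in the fit, the adjusted p was 0.0575 for Slamf6 and Klf7, 0.123 for Cd96 and 0.235 for Ppm1l. Against a minimum fold change of 1.5 (glmTreat), those of Rnf138 (0.105), Cldnd1 (0.0615), Cpm (0.28), Gm2a (0.311) and Ppm1l (0.0594) ended, as did that of Ppm1l with limma voom (0.0596). Leaving out a whole mouse ended the call of Cpm (mouse 3, 0.0576), Gm2a (mice 2 and 5, 0.194 and 0.146) and Ppm1l (mice 1, 4 and 5, 0.139, 0.0534 and 0.123).

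Among the genes of the lists, Satb1 (2.49) and Cxcr5 (6.97) fell less in ST2- than in ST2+ Tregs, and Foxp1 (-0.802) fell in ST2- Tregs and did not pass in ST2+ Tregs (adjusted p = 0.213). The Foxp1 interaction passed narrowly (adjusted p = 0.048) and was lost on leaving out any 1 of the 10 libraries, with adjusted p of 0.0596 without VAT mouse 1 to 0.104 without VAT mouse 5. That of Satb1 (adjusted p = 0.0373) was lost without any 1 of VAT mice 1, 3 and 5 and the spleen libraries (0.0502 to 0.131), and that of Cxcr5 (adjusted p = 0.0128) without VAT mouse 1 (0.0508). In ST2+ Tregs Cxcr5 had 0 counts in VAT, so its fitted value is no bound. The changes in Tnfaip3, Rgs2, Fosl2, Crem, Il10 and Areg were not called different between the populations (lowest interaction adjusted p = 0.334).

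**Figure D5:**
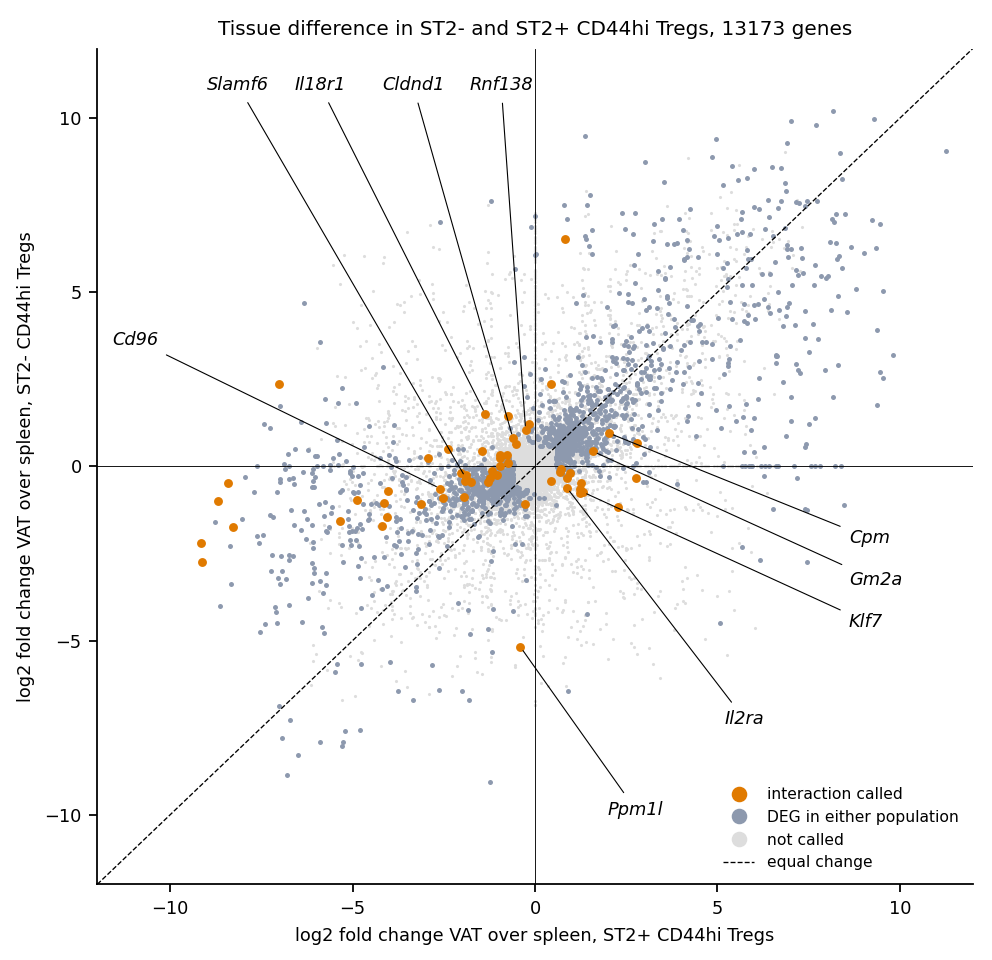
The log2 fold change of VAT over spleen in ST2- (vertical axis) against ST2+ (horizontal axis) CD44hi Tregs for 13173 genes, with the 58 genes called in the interaction in orange, other DEGs of either population in blue-grey, genes not called in light grey and equal change as a dashed line. Il18r1 lies above 0 in ST2- and below 0 in ST2+ Tregs, and Il2ra the reverse.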

How the data were processed

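RNA of sorted Treg populations was sequenced by the study from 5 mice after SMART-Seq v4 amplification and NexteraXT library preparation, as single reads of 58 bases. Per the submitters' processing notes, the authors used CASAVA 1.8.2, STAR, HTSeq 0.4.1, Picard, SAMtools and FastQC with GRCm38, and the deposited values are raw read counts per gene, whole numbers without normalization. How reads were assigned and whether strand was used is not given in the sources used here. Of 53465 gene IDs, 53274 were in GENCODE M21 and 21865 were protein-coding.

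Libraries above 1000000 counts were kept (67 of 70). The test covered the 13173 protein-coding genes that reached 1 CPM (counts per 1000000) in 10% of libraries or more. TMM factors and edgeR 4.0.16 (quasi-likelihood test, R 4.3.3) were used with 14 groups and no mouse term, with Benjamini-Hochberg adjustment over all tested genes, and every adjusted p comes from this test unless another tool is named. Thresholds for DEGs were 1.5 for the fold change and 0.05 for the adjusted p. SE was the log2 fold change divided by the square root of the F statistic. Intervals and floors of 3 counts cover counting error only. p-values of edgeR measure the spread between mice within groups, estimated over the 67 libraries of all 14 groups and not over VAT and spleen alone. All libraries came from the same 5 mice. Python 3.11.15 with scipy 1.17.1 served for the exact permutation tests.

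The labels give the mouse of each library, so VAT and spleen libraries are paired by animal. Deviations from the group means correlated weakly within a mouse (mean r 0.0323, range 0.0137 to 0.0784, across genes) and between different mice (mean -0.00802).

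Named genes were the 10 DEGs in each direction with the smallest adjusted p, the 8 in each direction with the largest fold among genes of at least 10 CPM and no overlap, called or defining members of the lists, the 5 in each direction with the smallest interaction p, and the genes of the gate. Some of these genes are not reported here. The members, the lists and the comparison were chosen with earlier results of these data known. Alternatives were DESeq2 1.42.0, limma 3.58.1 (voom with quality weights), other filters and scalings, a mouse block, and libraries left out in turn. Leaving out VAT mice 3 and 5 together was chosen after seeing the data. No pair of libraries was identical (0 of 20 compared).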

Additional observations from a re-analysis of the deposited data

Results flagged for a closer look

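A sample far from the other 4 of its group was found in 38 of 364 groups of values tested with Dixon's criterion, where chance alone gives about 1 in 20 for normally distributed values. A group with counts in 1 library alone is always flagged, so the share found here cannot be set against chance. Detected genes were 11877 in VAT mouse 2. VAT mouse 1 stood off, on the spleen side of the other VAT libraries, for Rnf125 (135 CPM), Gm14085 (12.3), Ikzf4 (284), Cxcr5 (149), Ccr2 (187) and Lgals3 (132). VAT mouse 3 stood off for Fabp4 (199 CPM), Ppm1l (2.91), Havcr2 (17.9), Egr1 (479), Cd36 (265) and Fabp5 (47.0), and for the summed lists of adipocytes (214 CPM), endothelial cells (556), B and plasma cells (2809.8) and granulocytes and mast cells (5.81). S100a11 was at 145 CPM in VAT mouse 2, and the epididymal list at 0.702 CPM in VAT mouse 1.

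Among spleen libraries, mouse 1 stood off for Dusp5 (77.8 CPM), Krt17 (43.4), Ikzf2 (673), Il10ra (71.4), Nr4a1 (225) and Anxa4 (49.0), mouse 2 for S100a10 (288), mouse 4 for Il2ra (505) and Ccr7 (517), and mouse 5 for Pparg (1.76), Cxcr6 (88.2), Klrg1 (124), Ldha (377) and the dendritic cell list (182). Single counts set spleen mouse 4 apart for Atf3 (0.414 CPM), mouse 2 for Fabp4 (0.419), mouse 5 for Acod1 (0.351), and mouse 3 for AA467197 and Ccr1 (0.435 each).

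The tissue difference of 13 named genes differed between ST2- and ST2+ Tregs in edgeR's interaction test. The interaction, as log2 of the ST2- over the ST2+ fold change, was 1.58 for Slamf6, 2.87 for Il18r1, 1.30 for Rnf138, 1.42 for Cldnd1, 1.96 for Cd96, 2.49 for Satb1 and 6.97 for Cxcr5. It was -1.48 for Il2ra, -2.04 for Klf7, -1.08 for Cpm, -1.16 for Gm2a, -4.78 for Ppm1l and -0.80 for Foxp1.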

How the results depend on the processing

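No log2 fold change of the named genes reversed in 29 settings. The 762 DEGs of ST2- Tregs (561 higher, 201 lower) were 293 with glmTreat at a minimum fold of 1.5 (247 and 46), 325 with only VAT libraries of at least 190 cells, those of mice 1 and 3 (280 and 45), 1234 with limma voom (523 lower), 1301 with voom and the mouse as a block (548 lower) and 505 without VAT mice 3 and 5 (114 lower). DESeq2 called 314 lower, and a fit of all 70 libraries 129 lower. Leaving out libraries or mice in turn gave 439 to 943 DEGs, 340 to 651 higher and 99 to 295 lower. In ST2+ Tregs glmTreat gave 720 DEGs (405 higher, 315 lower), the fit of only the groups compared 407 lower, and leaving out in turn 984 to 1534, 536 to 790 and 444 to 771. The 58 interaction genes were 139 with DESeq2, 113 with voom, 137 with voom and the block, 22 with all 70 libraries, 17 with only the groups compared, 10 with glmTreat, 31 with cell number as a covariate, 20 with at least 190 cells, and 10 to 71 on leaving out in turn. The 20 list members called lower were 38 with voom, with or without the block, 7 with glmTreat, 13 with cell number, 3 with at least 190 cells, 10 without VAT mice 3 and 5, and 10 to 26 on leaving out in turn, and those called higher 76 to 92. The share of the 50 most abundant genes differed by 0.841 percentage points (0.663 to 1.01 on leaving out a mouse, with an exact permutation p of 0.0857 to 0.114 without any of mice 2 to 5). With pairing by mouse its exact permutation p was 0.0625, the smallest two-sided p that 5 pairs allow. The mitochondrial share differed by 0.0384 to 0.0870 points, total counts by -485509.8 to -248039 and detected genes by -1321 to -437.8. Without mouse 1, total counts and mitochondrial share each had an exact permutation p of 0.0286, the smallest that 4 against 4 allow. Of the log2 fold changes of named genes under these settings, 4670 kept direction and call, 458 lost the call and 23 gained it. Of the counts of calls in single gene lists, 163 moved by over 1.5 times and 1113 did not. The causes were not tested.

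With the mouse as a replicate block, edgeR called 798 DEGs (549 higher, 249 lower) in ST2- Tregs, 1543 (774 and 769) in ST2+ Tregs, 73 in the interaction, and 87 and 24 list members. Among the named genes the pairing ended the calls of Zeb2, Nfkbia and S100a10 in ST2- Tregs, added Tcf7 as lower, and changed no other call. VAT mouse 2, from 93 cells, had 832 tested genes at 0 that no other VAT library had at 0, and for counts near its floor of 1.91 CPM differences were not detectable at this depth.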

Other observations

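VAT mouse 2, the library from 93 cells, had 832 tested genes with 0 counts that were detected in all 4 other VAT libraries, against 65 to 100 such genes in each other VAT library and 71 to 245 in the spleen libraries. Among them were Pparg (19.6 to 75.7 CPM in the other VAT libraries), Irf4 (55.2 to 139 CPM) and Zeb2 (11.6 to 60.8 CPM). A count of 3 corresponded to 1.91 CPM in this library, below the values these genes had in the other VAT libraries.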
